A study of Mus musculus with 6 samples.

Results

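Genes of the lipid droplet coat and of lipid uptake were compared in livers of mice without PKM2, a splice form of the muscle-type pyruvate kinase gene Pkm that acts in glycolysis (PKM2 KO), and of wild-type mice (WT). The set holds 10 genes, taken by symbol from the 23224 rows of the deposited table. They are Plin2, Plin4, Plin5, Cidea, Cidec, Fabp4, Fabp5, Cd36, Mogat1 and G0s2. Of these, 9 passed the filter on low counts and were tested, and Cidea did not. Livers came from 3 independent mice per genotype, all 35 weeks old and on a mixed C57BL/6J x 129SvJ background, and no treatment was given. The loss of PKM2 is a germline one, so it reaches every cell type of the liver and the rest of the body. The labels give no sex, litter or batch, and do not say whether the ground tissue held tumour. Polyadenylated RNA was sequenced. Levels are given as counts per 1000000 (CPM) after TMM scaling between libraries. CPM does not correct for transcript length, so levels are compared between livers and not between genes. Where a genotype has 3 values in a row, they are its replicates 1, 2 and 3 in that order.

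Hepatocytes store neutral lipid as triglyceride and sterol ester in droplets, each a lipid core under a single phospholipid layer covered with proteins. Perilipins coat that surface and govern the access of lipases. CIDE proteins enlarge droplets by passing lipid from smaller to larger ones, and both families are known to be high in fatty liver. Fatty acids reach the cell through carriers such as CD36 and are bound inside it by fatty acid binding proteins.

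Libraries held 27727048 to 36125711 expected counts. Pancreatic acinar markers, 10 in number, summed to 33.3 to 59.3 CPM over PKM2 KO livers, against 3070, 8750 and 31.3 CPM over the WT livers, so WT 1 and WT 2 stood apart. The targeted gene Pkm, listed under its older symbol Pkm2 and summed over both splice forms, ranged from 6.31 to 9.65 CPM over PKM2 KO and from 15.9 to 26.6 CPM over WT livers. It had an adjusted p of 0.314 in edgeR's quasi-likelihood test. Hepatocyte markers were high in every library, with 8 markers summing to 113000 to 125000 CPM over PKM2 KO and 85100 to 117000 CPM over WT livers.

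No member passed an adjusted p of 0.05 over the 13058 genes tested with edgeR, where 0.023% of all genes did. An unadjusted p under 0.05 was reached by 4 members, all lower in PKM2 KO, namely Plin2, Plin5, Fabp4 and Fabp5. The share of all genes at that level was 4.37% lower and 2.87% higher. DESeq2 called 2 members lower, Fabp4 and Fabp5, where it called 0.506% of all genes lower, and limma voom called 0. Genotypes were fully separated for 3 of the 9 tested members, Plin2, Fabp4 and Fabp5, all lower in PKM2 KO, against 6.27% of all tested genes in that direction and 5.8% in the other. In all, 7 of the 9 had a negative log2 fold change (PKM2 KO over WT), against 52.4% of all genes. Their median was -0.57, beside -0.01 over all tested genes. The median was -0.25 without WT 1 and -0.37 without PKM2 KO 2.

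**Figure D1:**
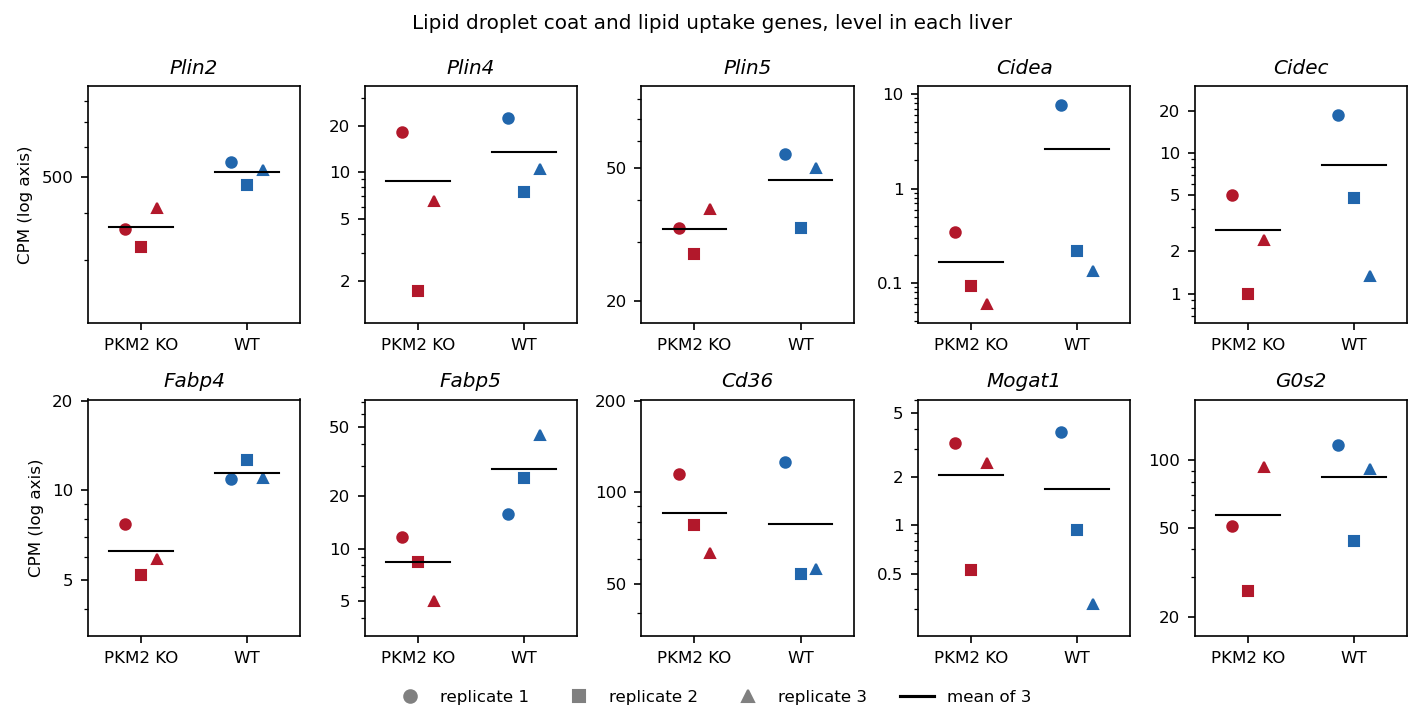
Level of each of the 10 genes in each liver, in CPM on a log axis with its own range per gene. Points are single livers, with PKM2 KO in red at the left and WT in blue at the right of each panel, and bars are means of 3 livers. The genotypes are apart for Plin2, Fabp4 and Fabp5, and WT 1 (circle) lies above all 3 PKM2 KO livers in every panel.

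Among the droplet coat genes, Plin2 was lower in every PKM2 KO liver than in any WT liver. Plin5 was lower on average with some overlap. Of the perilipin members, Plin4 varied most within each genotype in log2 CPM. Plin2 encodes the perilipin that coats droplets in most cell types, hepatocytes included. Its level was 363, 325 and 412 CPM in the PKM2 KO livers, against 548, 477 and 521 CPM in the WT livers. The groups did not overlap, and the highest PKM2 KO liver lay below the lowest WT liver. Means were 366.7 ± 44 CPM over PKM2 KO and 515.5 ± 35.9 CPM over WT (SD, n = 3 each), a log2 fold change of -0.49 (SE 0.144) with an adjusted p of 0.566 in edgeR. The estimate stayed between -0.58 and -0.41 when any 1 liver was left out.

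Plin5 encodes a perilipin of tissues with high fatty acid oxidation, which tethers droplets to mitochondria. Its level was 33.2, 27.6 and 37.8 CPM in the PKM2 KO livers, against 54.8, 33.1 and 49.9 CPM in the WT livers. WT 2 lay among the PKM2 KO livers, and the other WT livers lay above all of them. Its log2 fold change was -0.48 (SE 0.207, adjusted p = 0.687 in edgeR).

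Plin4 encodes a perilipin with a long run of repeats, best known from small droplets in adipocytes and muscle. Its level was 18.3, 1.71 and 6.51 CPM in the PKM2 KO livers, against 22.5, 7.41 and 10.5 CPM in the WT livers. The first liver of each genotype was high and PKM2 KO 2 was the lowest, so the groups overlapped. Means were 8.85 ± 8.56 CPM over PKM2 KO and 13.46 ± 7.94 CPM over WT (SD, n = 3 each). The log2 fold change was -0.61 (SE 0.754, adjusted p = 0.914 in edgeR), and it was -0.02 without WT 1, -0.12 without PKM2 KO 2 and -1.70 without PKM2 KO 1.

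Plin4 and Plin5 are next to each other on chromosome 17 among protein-coding genes of the RefSeq assembly GRCm38.p6, yet Plin4 spanned 3.67 log2 units over the 6 livers and Plin5 spanned 0.99. Plin2, on chromosome 4, spanned 0.76. All 3 perilipin members were highest in WT 1 and lowest in PKM2 KO 2. Perilipin genes outside the members differed from this. Plin3 was highest in WT 1 (50.5 CPM) but lowest in PKM2 KO 3 (39.2 CPM). Plin1 was highest in WT 2 (0.747 CPM) and lowest in WT 3 (0.0541 CPM). The promoters of the 3 perilipin members are shown because these genes of 1 family differed in how widely they varied over the livers. Each is 5′ to 3′ on the minus strand, from 250 bases before to 50 after a RefSeq start in GRCm38.p6, at chr4:86670010-86670309 for Plin2, chr17:56117499-56117798 for Plin5 and chr17:56109733-56110032 for Plin4. Capitals mark AGGTCA, the nuclear receptor half-site, or CACGTG, the E-box, on either strand.
Plin2: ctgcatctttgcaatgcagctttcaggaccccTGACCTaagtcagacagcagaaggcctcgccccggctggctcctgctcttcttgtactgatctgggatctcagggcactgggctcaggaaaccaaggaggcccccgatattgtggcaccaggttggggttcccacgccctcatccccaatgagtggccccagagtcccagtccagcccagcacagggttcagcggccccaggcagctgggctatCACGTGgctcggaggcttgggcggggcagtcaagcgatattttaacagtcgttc
Plin5: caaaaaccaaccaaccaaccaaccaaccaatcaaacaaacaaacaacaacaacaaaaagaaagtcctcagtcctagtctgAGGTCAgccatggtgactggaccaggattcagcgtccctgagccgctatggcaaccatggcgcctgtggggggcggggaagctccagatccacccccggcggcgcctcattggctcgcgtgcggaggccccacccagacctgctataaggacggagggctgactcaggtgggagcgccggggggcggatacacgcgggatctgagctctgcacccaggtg
Plin4: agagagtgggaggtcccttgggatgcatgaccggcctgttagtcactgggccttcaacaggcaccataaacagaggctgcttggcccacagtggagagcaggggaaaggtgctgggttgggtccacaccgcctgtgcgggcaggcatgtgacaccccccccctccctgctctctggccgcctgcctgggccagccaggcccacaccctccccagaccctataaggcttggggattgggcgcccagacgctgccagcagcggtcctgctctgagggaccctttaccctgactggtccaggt
The Plin2 window held 1 AGGTCA, on the opposite strand, and 1 CACGTG near the start. The Plin5 window shown held 1 AGGTCA and no CACGTG. Another Plin5 window, for a different RefSeq start (chr17:56117249-56117548) and not shown, also held 1 AGGTCA and no CACGTG. Neither motif was in the Plin4 window. The share of all 32851 RefSeq promoter windows of this length was 16.3% for AGGTCA and 7.15% for CACGTG. A direct repeat of AGGTCA with 1 base between, on either strand, was in 0.0396% of windows and in none of the 9 windows of the 7 members with an entry. These letters describe the windows and are not evidence of binding.

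**Figure D2:**
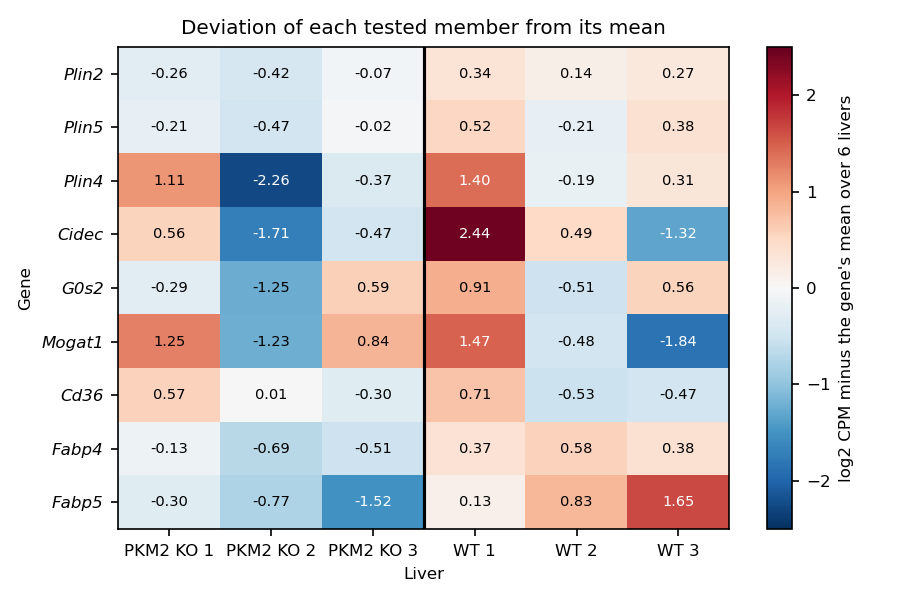
Deviation of each tested member from its own mean over the 6 livers, in log2 CPM, with genes down the side and livers across, PKM2 KO left of the black line and WT right of it. Plin2 and Plin5 keep to small deviations, while Plin4, Cidec and Mogat1 are high in PKM2 KO 1 and WT 1 and low in PKM2 KO 2.

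Both CIDE members were highest in WT 1, as was Cideb outside the members (303 CPM). Cidea, best known from brown fat and induced in fatty liver, had 10, 3 and 2 expected counts in the PKM2 KO livers, against 212, 7 and 5 in the WT livers. In CPM these are 0.345, 0.0933 and 0.0608 in PKM2 KO and 7.58, 0.218 and 0.135 in WT livers. Only WT 1 stood apart, and the other WT livers lay within the PKM2 KO range. Cidea did not pass the filter, so it has no fold change among the tested genes. With no filter it had a log2 fold change of -3.98 (SE 1.53, adjusted p = 0.72 in edgeR, and 0.557 to 1 over the alternatives that tested it). With WT 3 alone as control the value was 0.26.

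Cidec, the CIDE protein of large droplets in white fat and fatty liver, was at 5.03, 0.995 and 2.43 CPM in the PKM2 KO livers, against 18.7, 4.8 and 1.33 CPM in the WT livers. WT 1 was the highest, and WT 3 lay between PKM2 KO 2 and PKM2 KO 3. Its range of 4.15 log2 units was the widest of the tested members. Means were 2.82 ± 2.05 CPM over PKM2 KO and 8.285 ± 9.21 CPM over WT (SD, n = 3 each), with a log2 fold change of -1.55 (SE 0.924, adjusted p = 0.774 in edgeR). This value rested on WT 1, since it was -0.11 without that liver and 1.08 with WT 3 alone as control. With any other liver left out, it ran from -2.26 without PKM2 KO 1 to -1.15 without PKM2 KO 2.

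G0s2, which encodes an inhibitor of adipose triglyceride lipase, was at 50.8, 26.1 and 93.3 CPM in the PKM2 KO livers, against 117, 43.6 and 91.5 CPM in the WT livers. Both genotypes spanned a wide range, and PKM2 KO 3 lay above WT 3. This gave a log2 fold change of -0.57 (SE 0.495, adjusted p = 0.858 in edgeR). It ran from -1.13 without PKM2 KO 3 to -0.22 without PKM2 KO 2, and was -0.25 without WT 1 and -0.88 without WT 2.

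Mogat1, an acyltransferase that makes diacylglycerol from monoacylglycerol and is known to be induced in fatty liver, was at 3.24, 0.529 and 2.43 CPM in the PKM2 KO livers, against 3.79, 0.934 and 0.325 CPM in the WT livers. The genotypes overlapped across almost the whole range. Mogat1 had a log2 fold change of 0.32 (SE 0.893, adjusted p = 0.966 in edgeR). Without WT 1 it was 1.73, without PKM2 KO 2 0.77, and with WT 3 alone as control 2.66. It was -0.19 without WT 3, -0.16 without PKM2 KO 1, 0.17 without PKM2 KO 3 and 0.03 without WT 2.

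Of the uptake genes, Cd36 overlapped between genotypes and both fatty acid binding protein genes were lower in every PKM2 KO liver than in any WT liver. Cd36, a scavenger receptor that carries long-chain fatty acids into hepatocytes, macrophages and endothelium, was at 115, 77.9 and 62.8 CPM in the PKM2 KO livers, against 126, 53.6 and 55.7 CPM in the WT livers. PKM2 KO 1 and WT 1 were the high livers. Cd36 had a log2 fold change of 0.12 (SE 0.37, adjusted p = 0.967 in edgeR). It was 0.65 without WT 1, 0.30 without PKM2 KO 3 and 0.18 without PKM2 KO 2, and turned negative without PKM2 KO 1 (-0.15), WT 2 (-0.09) or WT 3 (-0.07).

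Fabp4, the fatty acid binding protein of adipocytes, also made by macrophages and endothelial cells, was at 7.69, 5.19 and 5.9 CPM in the PKM2 KO livers, against 10.9, 12.6 and 11 CPM in the WT livers. The groups did not overlap, and the WT livers lay close together. The log2 fold change was -0.88 (SE 0.17, adjusted p = 0.488 in edgeR and 0.00607 in DESeq2, and 0.00607 to 1 over all alternatives), and it ran from -1.04 to -0.76 with any 1 liver left out.

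Fabp5, the epidermal fatty acid binding protein, also known from macrophages and endothelium, was at 11.7, 8.43 and 4.99 CPM in the PKM2 KO livers, against 15.8, 25.7 and 45.3 CPM in the WT livers. The groups did not overlap, but the WT livers differed widely, with WT 3 the highest. Fabp5 had a log2 fold change of -1.79 (SE 0.432, adjusted p = 0.566 in edgeR and 0.00123 in DESeq2, and 0.00123 to 1 over all alternatives), and it ran from -2.10 without PKM2 KO 1 to -1.31 without WT 3. Fabp5 has near-identical pseudogene copies, and its expected count was a whole number in all livers but WT 3 (1673.08), as that of Fabp4 was in all but WT 1 (304.69) and WT 2 (404.06). Both genes are on chromosome 3 with 2 protein-coding genes between them, Pmp2 and Fabp9. Fabp4 varied within narrow limits in WT while Fabp5 did not, with SDs of log2 CPM over the WT livers of 0.116 and 0.76.

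**Figure D3:**
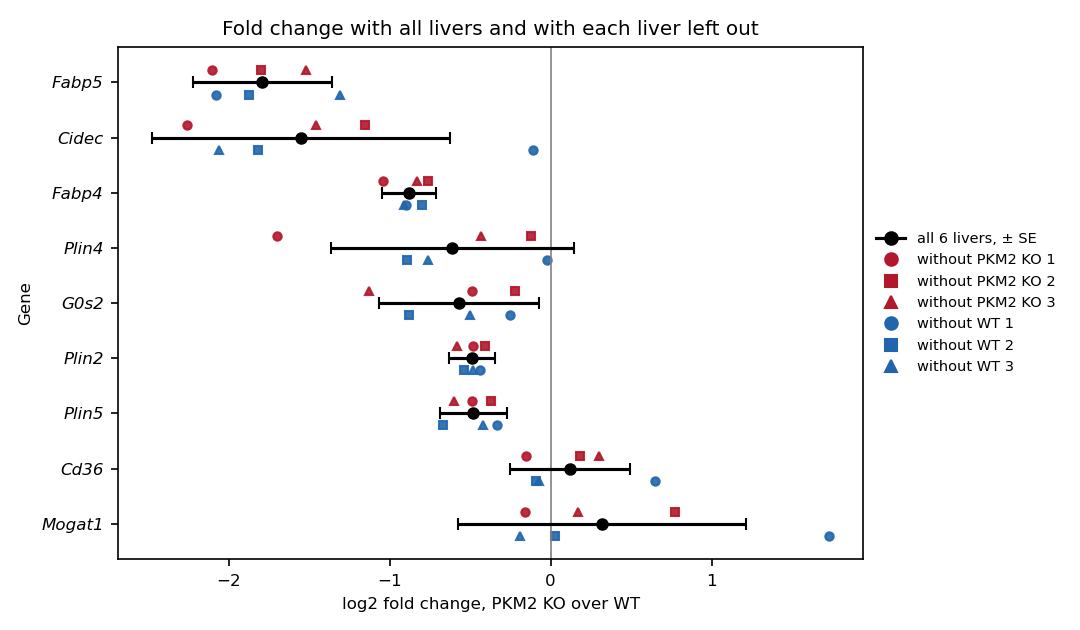
Log2 fold change of each tested member, PKM2 KO over WT, with all 6 livers (black, bars are ± 1 SE) and with each liver left out (red, a PKM2 KO liver left out; blue, a WT liver left out). Fabp4 and Plin2 stay in narrow bands below 0. Without WT 1, Cidec, Plin4, Mogat1 and Cd36 shift by over 0.5, to -0.11, -0.02, 1.73 and 0.65. Plin4 shifts further without PKM2 KO 1, to -1.70.

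Across livers, WT 1 held the highest levels of most members. It lay above all 3 PKM2 KO livers for 9 of the 9 tested members, where 28.1% of all tested genes did so. For WT 2 this held for 3 of 9 (33.3% of all genes) and for WT 3 for 4 of 9 (34.2% of all genes). WT 1 was the highest of the 6 livers for 7 of 9 members, against 18.4% of all genes, and PKM2 KO 2 the lowest for 6 of 9, against 11.7%. High levels in WT 1 were not particular to the members. Summed over related lists described below, WT 1 was also highest for other droplet proteins (1980 CPM, others 1560 to 1810) and lipases (1710, others 752 to 1320). The same held for uptake and acyl-CoA activation (10600 CPM, others 8000 to 9330) and triglyceride synthesis (2130, others 1240 to 1850). It did not hold for transcriptional regulators, at 1910 CPM in WT 1 and 2040 to 2070 CPM over PKM2 KO livers. The spread between livers of 1 genotype was wide for the members. Their median SD of log2 CPM was 0.614 over PKM2 KO livers and 0.74 over WT livers, beside 0.144 and 0.227 over all tested genes.

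For the 5 members that spanned over 2 log2 units, the 3 genes most like each in centred log2 CPM over the 6 livers were sought in 11067 tested genes averaging 50 or more counts, by the mean absolute difference. For Cidec these were Lgals1 (0.38), Gpc1 (0.62) and Clstn3 (0.66). Lgals1, which encodes a galactose-binding lectin, was at 30.2, 5.35 and 18.5 CPM in the PKM2 KO livers, against 57.4, 20.8 and 10.1 CPM in the WT livers. For Mogat1 they were Apoa4 (0.36), Themis (0.37) and Vnn1 (0.40). Apoa4, an apolipoprotein gene, was at 793, 241 and 881 CPM in the PKM2 KO livers, against 956, 180 and 81.4 CPM in the WT livers. For Plin4 they were Gprc5b (0.45), Abcb1a (0.47) and Pira2 (0.50), and for Fabp5 Gm3776 (0.30), Abhd2 (0.35) and Kctd17 (0.37). For G0s2 they were Mthfd1l (0.30), Nnt (0.32) and Angptl4 (0.33). Angptl4, a secreted inhibitor of lipoprotein lipase, was at 43.1, 31 and 52.5 CPM in the PKM2 KO livers, against 80.3, 53.8 and 74.4 CPM in the WT livers.

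Related genes of lipid handling were described from 5 lists, and no gene of any of them passed over all genes in edgeR. Among the genes of these lists named here, an unadjusted p under 0.05 was reached by Pnpla2, lower in PKM2 KO, and by Srebf1, higher in PKM2 KO. Over all tested genes, the share at that level was 4.37% lower and 2.87% higher. DESeq2 called Srebf1, and limma voom called no gene of these lists. Of 12 other droplet proteins, 7 were positive and 5 negative, with a median log2 fold change of 0.01. Plin3, the perilipin found free in the cytosol as well as on droplets, was at 41.15 ± 1.65 CPM over PKM2 KO and 47.56 ± 4.95 CPM over WT, and Bscl2, which encodes the droplet assembly protein seipin, was at 49.43 ± 2.31 CPM over PKM2 KO and 40.5 ± 10.5 CPM over WT (SD, n = 3 each). The abundant Mettl7b and Hsd17b13, both droplet-associated proteins of hepatocytes, had log2 fold changes that rounded to 0. The genotypes overlapped for all 12 of these genes.

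Of 10 lipases and cofactors, 6 were negative, with a median of -0.05. Pnpla2, which encodes adipose triglyceride lipase, the target of G0s2, was at 63, 66.6 and 67.3 CPM in the PKM2 KO livers, against 104, 76.8 and 75.6 CPM in the WT livers. These groups did not overlap (log2 fold change -0.38, adjusted p = 0.658 in edgeR). Lpl, lipoprotein lipase, was at 11.46 ± 3.61 CPM over PKM2 KO and 16.13 ± 7 CPM over WT. Ces1d, a triglyceride hydrolase with close carboxylesterase paralogs, was at 628, 465 and 586 CPM in the PKM2 KO livers, against 853, 234 and 198 CPM in the WT livers, and Mgll, monoglyceride lipase, was at 175.3 ± 12.4 CPM over PKM2 KO and 202.7 ± 73 CPM over WT. WT 1 was again the highest liver for Pnpla2 and Ces1d.

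Of 17 genes for fatty acid and lipoprotein uptake and acyl-CoA activation, 11 were positive, with a median of 0.06. Lsr, a lipoprotein receptor, had a log2 fold change of -0.40. Fabp1, the main fatty acid binding protein of hepatocytes, was at 3215 ± 440 CPM over PKM2 KO and 3187 ± 1150 CPM over WT, and Slc27a2, a fatty acid transporter with acyl-CoA synthetase activity, at 1009 ± 96.9 CPM over PKM2 KO and 1176 ± 209 CPM over WT. For Fabp1 the log2 fold change was 0.01, beside -0.88 for Fabp4 and -1.79 for Fabp5.

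Of 12 triglyceride synthesis genes, 6 were positive, with a median of -0.01. Mogat2, the intestinal counterpart of Mogat1, was at 0.4532 ± 0.159 CPM over PKM2 KO and 1.052 ± 0.658 CPM over WT. Gpam, which starts glycerolipid synthesis, was at 182.9 ± 37.2 CPM over PKM2 KO and 137.3 ± 26 CPM over WT. Dgat2, which makes triglyceride from diacylglycerol, was at 675.3 ± 11.7 CPM over PKM2 KO and 578.2 ± 190 CPM over WT, and Lpin2, a phosphatidate phosphatase, was at 219.2 ± 39 CPM over PKM2 KO and 228.9 ± 80.6 CPM over WT. Of 11 transcriptional regulators, 6 were positive, with a median of 0.01. Srebf1, which drives fatty acid synthesis, was at 544, 391 and 429 CPM in the PKM2 KO livers, against 279, 221 and 231 CPM in the WT livers (log2 fold change 0.90, adjusted p = 0.488 in edgeR). Ppara, the fatty acid receptor of hepatocytes, was at 373, 330 and 296 CPM in the PKM2 KO livers, against 459, 373 and 408 CPM in the WT livers (log2 fold change -0.31, adjusted p = 0.724 in edgeR). The abundant Rxra and Cebpa had log2 fold changes of -0.09 and 0.25. Pparg, the fat cell receptor known to induce Cidea, Cidec, Fabp4, Mogat1 and Plin4, was chosen after its values were seen. Its level was 9.17, 5.72 and 13.5 CPM in the PKM2 KO livers, against 13.9, 9.31 and 4.28 CPM in the WT livers, and overlapped.

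**Figure D4:**
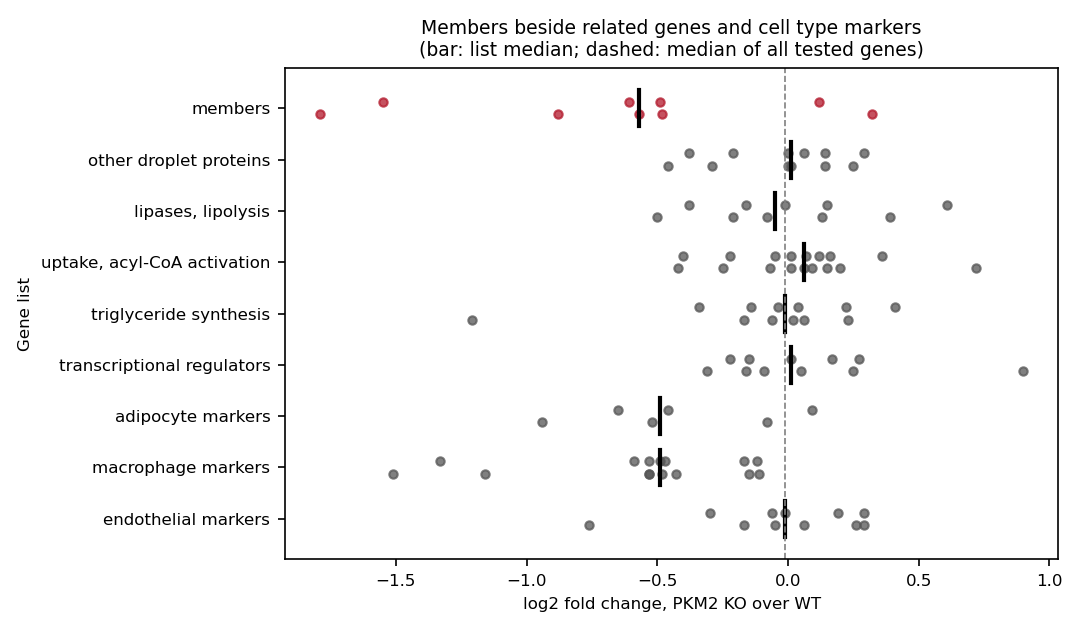
Log2 fold change of each tested gene, PKM2 KO over WT, in the member list (red) and in related and cell type lists (grey), with a black bar at each list's median and a dashed line at -0.01, the median of all tested genes. The members' median is -0.57, and those of the macrophage and adipocyte markers are both -0.49 (without WT 2, -0.47 for macrophage and 0.19 for adipocyte markers). The related lipid lists centre between -0.05 and 0.06. Without WT 1 these lists centre between -0.06 and 0.20, and the members at -0.25.

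In whole tissue, fewer cells of a type and less RNA per cell cannot be told apart, and several members are also made by adipocytes, macrophages or endothelium. All 15 tested macrophage and Kupffer cell markers of 16 listed had negative fold changes (median -0.49), against 52.4% of all tested genes. The changes were of unequal size. The genotypes did not overlap for 6 of these markers, all lower in PKM2 KO, against 6.27% of all tested genes in that direction. Among the 6 were C1qa (-0.59) and Itgam (-1.51). The smallest changes were those of Clec4f (-0.12), Vsig4 (-0.11), Timd4 (-0.17) and Csf1r (-0.15), which overlapped. The sum of the whole list was 367 to 420 CPM over PKM2 KO and 492 to 531 CPM over WT livers, without overlap. This was in the same direction as Fabp4, Fabp5 and Plin2. The part of macrophages in those values was not tested. Of 8 adipocyte markers listed, 6 were tested and 5 had negative fold changes (median -0.49). Their sum overlapped, at 21.3 to 36.5 CPM over PKM2 KO and 26.4 to 39.8 CPM over WT livers. Most of that sum was Lipe, at 26.1, 24 and 18.8 CPM in PKM2 KO and 23.2, 28.6 and 21.3 CPM in WT livers. Cfd ranged more widely, at 2.76, 0.218 and 0.426 CPM in PKM2 KO and 1.86, 3.46 and 0 CPM in WT livers. The adipocyte markers' median was 0.19 without WT 2, -0.80 without WT 3 and 1.23 with WT 3 alone as control. Adipoq, the adipocyte hormone, was at 1.41, 0.187 and 0.182 CPM in the PKM2 KO livers, against 0.858, 1.68 and 0 CPM in the WT livers. WT 2 held the highest level, and WT 3 had no Adipoq or Cfd count. The part of adipocytes in the members' values was not tested. Of 11 endothelial markers, 6 were negative (median -0.01), and their sum was 297 to 312 CPM over PKM2 KO and 261 to 311 CPM over WT livers. No marker of these lists was at 0 in all 6 livers.

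WT 1 and WT 2 held the acinar transcripts. With WT 3 alone as control the log2 fold change was -0.50 for Plin2, -0.81 for Fabp4 and -2.44 for Fabp5. Those of Cidec and Cidea turned positive, as given above.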

How the data were processed

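The authors deposited RSEM expected counts per gene for each liver, with no scaling between libraries. Tools and build were Bowtie 1.0.1, RSEM 1.2.12 and mm9, per the submitters' processing notes. The annotation and the strandedness of counting are not given in the sources used here. RSEM divides reads among matching transcripts, so near-identical copies are uncertain.

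Expected counts were rounded and filtered with filterByExpr of edgeR 4.0.16 (R 4.3.3), which left 13058 genes, scaled by TMM and tested with the quasi-likelihood F test on genotype, all 6 livers in the fit, Benjamini-Hochberg adjustment over all genes and a threshold of 0.05. The SE is the absolute log2 fold change over the square root of F. Log2 CPM used a prior count of 2. Alternatives used DESeq2 1.42.0, limma 3.58.1 (voom), other scalings and filters, a replicate block, and livers left out. The pipeline was tested on simulated counts. No pair of libraries was alike enough to be a repeat (lowest chi-square per gene 31.39). Figures were drawn with matplotlib 3.10.9. Promoters came from RefSeq, GRCm38.p6, matched by symbol for 7 of the 10 members.

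The members and gene lists were chosen with earlier results of these data known. The rule for named genes took the members, the 2 genes with the smallest p and the 2 most abundant per related list, and genes alike in pattern. A gene that the rule also took is not reported here. A p-value sets the difference between genotypes against the spread between these mice. With 3 against 3 livers, low counts such as those of Cidea limit precision.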

Additional observations from a re-analysis of the deposited data

How the results depend on the processing

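Over 15 alternatives, 127 of the 135 member fold changes kept their direction and their side of the threshold. DESeq2 called Fabp4 and Fabp5, so 2 members were called there, and 0 under each of the other alternatives. The reversals were Cd36 when PKM2 KO 1 (-0.15), WT 2 (-0.09) or WT 3 (-0.07) was left out, Mogat1 when PKM2 KO 1 (-0.16) or WT 3 (-0.19) was left out, and Cidec with WT 3 alone as control (1.08), and their cause was not tested. With any 1 liver left out, Cd36 ran from -0.15 to 0.65 and Mogat1 from -0.19 to 1.73. With limma voom, Plin4 was at -1.04, Cidec at -1.0, Mogat1 at 0.69 and Cd36 at 0.19, and with the replicate block Plin4 was at -0.96, Mogat1 at 0.51 and Cd36 at 0.19. The members' median log2 fold change kept its sign throughout, between -0.80 and -0.25 with any 1 liver left out. Over the whole table, 3 genes were called, against 97 with DESeq2, 5 with limma voom, 5 with no filter on low counts, 7 with the replicate block and 163 with WT 3 alone as control, whose spread came from PKM2 KO livers alone. Leaving out 1 liver gave 3 to 51 calls, with 51 without WT replicate 1 and 51 without WT replicate 3. With the replicate block no member was called, and same-numbered livers did not deviate together (correlations across genes -0.051, 0.027 and -0.092), so the numbers are not taken as pairs. Cidea had 212 counts in WT 1 and 2 to 10 in the other livers, so its fold change rested on WT 1.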
